A study of Mus musculus with 6 samples.

Results

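Neutrophil granule genes were followed in sorted bone marrow stem and progenitor cells of mice with and without Ash2l. Of 30738 genes with a probe set annotated to them alone, 10 were taken, all by name: Mpo, Elane, Prtn3 and Ctsg of the primary granules and Ngp, Camp, Ltf, Lcn2, Mmp8 and Cd177 of the secondary granules. Each of the 10 genes had exactly 1 such probe set. The samples were LSK cells (lin-, Sca1+, cKit+), the marrow fraction that holds stem and multipotent progenitor cells, with 3 KO and 3 control replicates and 1 array for each. KO mice were Ash2l exon4 fl/fl with MxCre, a Cre recombinase under the interferon-inducible Mx1 promoter that is active in many cell types, and control mice were fl/fl without Cre. Mice of both groups received 3 intraperitoneal injections of an interferon inducer, on days 1, 3 and 5, and marrow was taken on day 10. The inducer is called poly(dIdC) in the labels and pIC, at 10 mg per kg, in the study's methods, which give an age of 10 to 25 weeks. The alleles came from C57BL/6N embryonic stem cells and a B6 Mx1-Cre line. Every sample therefore had an interferon stimulus, and only the KO samples had Cre. Labels call the replicates biological but tie no array to a single animal, so that the p-values measure the spread between these samples.

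Neutrophils fill their granules in sequence as they mature. Primary, or azurophil, granules are made at the promyelocyte stage and carry myeloperoxidase and the serine proteases, whose genes are already active in granulocyte-macrophage progenitors. Secondary, or specific, granules follow at the myelocyte and metamyelocyte stages, when the primary granule genes have been turned off and C/EBP-epsilon drives genes such as lactoferrin. LSK cells lie upstream of both stages. ASH2L is a core subunit of the complexes that methylate lysine 4 of histone H3.

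Signals are log2 values, so that a difference of 1 is a doubling, and the median probe set was at 6.07. Each of the 65956 probe sets was tested for a difference between KO and control with limma, whose standard errors (SE) and 95% intervals are given. A criterion of over 2-fold at an unadjusted p under 0.01, thresholds that the study names without saying whether its p was adjusted, was met by 0.593% of probe sets as higher in KO and by 0.393% as lower in KO. At an adjusted p under 0.05 (Benjamini-Hochberg over all probe sets) limma called 0 probe sets (0.0%), although 5.09% were higher and 5.8% lower at an unadjusted p under 0.05. The median probe set differed by -0.03 between the groups. The Ash2l probe set, which covers the whole gene and not only exon 4, was at 9.63 to 9.65 on the KO arrays and at 10.23 to 10.76 on the controls. The 10 measured stem and progenitor markers, of 12 listed, averaged 9.88 to 10.06 on the KO arrays and 9.37 to 10.76 on the controls. The control arrays differed strongly among themselves: 8 B cell genes averaged 11.89, 11.63 and 7.5 on control replicates 1, 2 and 3, against 8.35 to 9.18 on the KO arrays. Without control replicate 3, 1418 probe sets (2.15%) were higher and 914 lower at an adjusted p under 0.05. Leaving out any other single array gave 0 to 3 probe sets higher and 0 lower at that threshold. Counts of calls are therefore also given without control replicate 3, where 1.86% of all probe sets met the criterion as higher and 1.3% as lower. In that setting all KO arrays were above the controls for 16.7% of probe sets and below them for 16.3%. On all 6 arrays these shares were 6.15% and 9.15%. The share of all probe sets at an unadjusted p under 0.05 is not given for fits with an array left out. Counts of genes at that threshold in those fits therefore have no background to be read against. Control replicate 3 was singled out from its values in these same data, so that results without it are a description and no independent test.

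None of the 4 primary granule genes differed between KO and control beyond the spread of the arrays. Ctsg and Elane had higher means in KO, by 1.16 and 1.14 on the log2 scale, while Mpo and Prtn3 had lower means, by 0.65 and 0.31. Control replicate 2 gave the highest signal of all 6 arrays for each of the 4 genes, above every KO array. The median difference of the 4 genes was 0.42, but it was -0.07, -0.33 and -0.05 without KO replicate 1, control replicate 1 or control replicate 3, and 1.21 without control replicate 2. The criterion counted 0 of them in either direction, beside the 0.593% and 0.393% of all probe sets.

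Mpo encodes myeloperoxidase, the enzyme that makes hypochlorous acid from hydrogen peroxide. Its log2 signal was 15.49, 14.91 and 14.79 on KO replicates 1 to 3 and 14.81, 17.19 and 15.13 on control replicates 1 to 3. The groups overlapped, since control replicates 1 and 3 lay within the KO range and control replicate 2 stood 2.06 above the next control. The KO mean was 15.06 ± 0.37 (SD, n = 3) and the control mean 15.71 ± 1.29 (SD, n = 3), a log2 fold change of -0.65 (SE 0.60, 95% interval -2.08 to 0.79, adjusted p = 0.763 from limma). The sign rested on 1 array: without control replicate 2 the value was 0.09.

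Elane encodes neutrophil elastase, a serine protease of the azurophil granule. It stood at 14.61, 12.43 and 12.86 in KO and at 10.75, 15.02 and 10.71 in control. All 3 KO arrays lay between control replicate 2 on the one side and control replicates 1 and 3 on the other. The control arrays therefore spanned 4.31, more than the KO arrays, which spanned 2.18. The difference was 1.14 (SE 1.21, 95% interval -1.74 to 4.02, adjusted p = 0.797 from limma). When single arrays were left out it ranged from 0.41 to 2.57. The upper value came without control replicate 2, and the groups then no longer overlapped (adjusted p = 0.279 from limma).

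Prtn3 encodes proteinase 3 and lies beside Elane in the genome. The gene occupies chr10:79879667-79883174 and Elane chr10:79886312-79888216 (GRCm38.p6), 3137 bases apart with 0 protein-coding genes between them. The Prtn3 signal was 11.71, 10.69 and 10.84 in KO and 10.22, 12.98 and 10.97 in control. As for Elane, control replicate 2 was highest and control replicates 1 and 3 were low, but here control replicate 3 fell within the KO range. The log2 fold change was -0.31 (SE 0.68, 95% interval -1.93 to 1.31, adjusted p = 0.915 from limma), and 0.48 without control replicate 2. The neighbours thus had mean differences of opposite sign, each smaller than the spread of the control arrays.

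Ctsg encodes cathepsin G, the serine protease of this class with chymotrypsin-like activity. It was measured at 15.24, 14.96 and 14.66 in KO, a tight group, and at 11.94, 15.35 and 14.1 in control. Control replicate 2 lay just above the KO arrays, and control replicates 1 and 3 lay below them. The difference was 1.16 (SE 0.78, 95% interval -0.70 to 3.01, adjusted p = 0.659 from limma). It was 0.23 without control replicate 1, the array with the lowest Ctsg signal, and 1.93 without control replicate 2, when the groups no longer overlapped (adjusted p = 0.358 from limma).

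The bases just before the start sites of Elane and Prtn3 are shown because both neighbours were highest on control replicate 2. The motifs of 4 factors that act in granulocyte precursors were searched on both strands of the 250 bases before the start in RefSeq sequence (GRCm38.p6): GAGGAA of PU.1, TTGCNNAA of C/EBP, TGTGGT of RUNX and TAACNG of MYB. Matches are in capitals, and no match overlapped another.
Elane (chr10:79886062-79886311, + strand): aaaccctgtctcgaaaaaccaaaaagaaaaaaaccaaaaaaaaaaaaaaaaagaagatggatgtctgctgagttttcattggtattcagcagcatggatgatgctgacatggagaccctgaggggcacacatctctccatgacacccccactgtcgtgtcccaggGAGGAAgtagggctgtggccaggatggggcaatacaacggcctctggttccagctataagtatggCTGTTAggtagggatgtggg
Prtn3 (chr10:79879417-79879666, + strand): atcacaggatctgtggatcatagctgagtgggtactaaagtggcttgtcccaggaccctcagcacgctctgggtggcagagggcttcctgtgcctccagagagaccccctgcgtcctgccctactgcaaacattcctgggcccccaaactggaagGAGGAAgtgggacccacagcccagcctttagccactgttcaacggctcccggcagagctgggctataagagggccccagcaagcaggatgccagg
Each holds 1 PU.1 match on the strand of the gene, at -85 to -80 for Elane and at -95 to -90 for Prtn3 counted from the start, and Elane also has a MYB match on the other strand, at -20 to -15. GAGGAA was found before all 4 primary granule genes and 4 of the 6 secondary ones, and in 23.3% of 32851 promoters of the same length. TTGCNNAA was found before 0 of the 4 primary and 4 of the 6 secondary granule genes, and in 9.56% of those promoters. TAACNG was found before 3 of the 10 genes (Mpo, Elane and Mmp8) and TGTGGT before 1 (Ctsg), against 19.8% and 14.0% of promoters. A match of letters is a description of the sequence and does not show that a factor binds there.

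**Figure D1:**
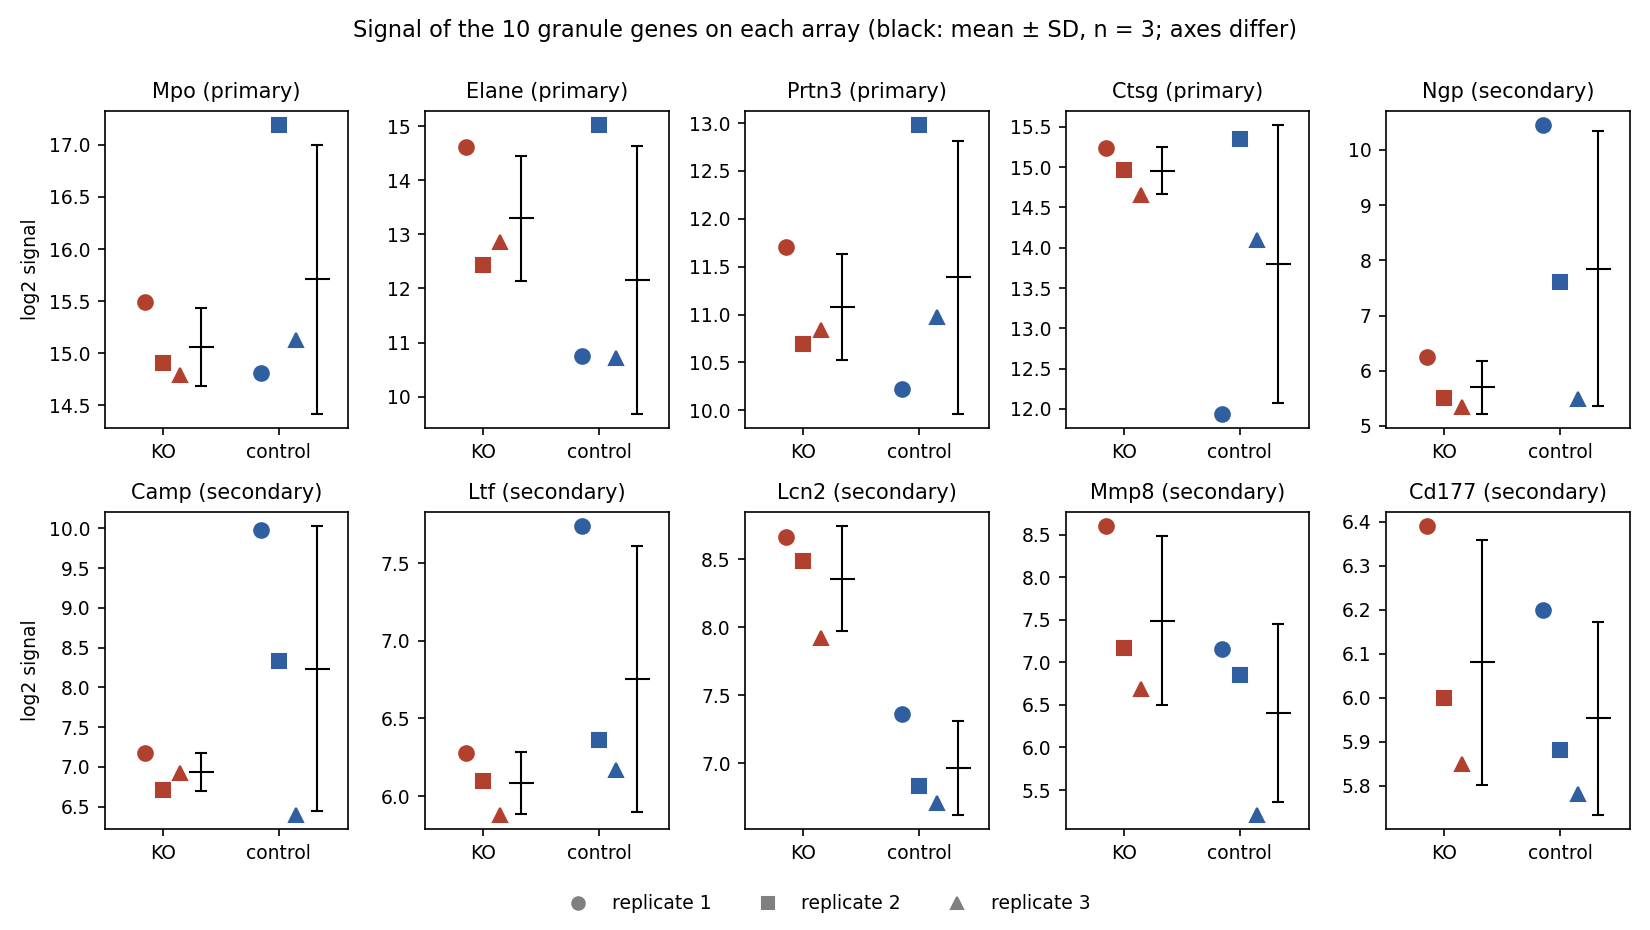
Log2 signal of each of the 10 granule genes on the 3 KO (red) and 3 control (blue) arrays, with the mean and SD of each group in black and a separate vertical axis for each gene. Lcn2 is the gene whose KO arrays all lie above the controls, and the control bars of Mpo, Elane, Prtn3, Ctsg, Ngp, Camp and Ltf are longer than the KO bars.

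The secondary granule genes did not move together. Ngp, Camp and Ltf had lower means in KO, by 2.15, 1.30 and 0.67, and Lcn2 and Mmp8 higher means, by 1.39 and 1.08. Lcn2 alone met the criterion and separated the groups. By the criterion 1 of the 6 genes thus counted as higher and 0 as lower, beside 0.593% and 0.393% of all probe sets. All KO arrays were above all controls for 6.15% of all probe sets and below them for 9.15%. The median difference of the 6 genes was -0.27, and 0.04 without control replicate 1. Control replicate 1 gave the highest control signal and control replicate 3 the lowest for each of the 6. In bulk samples, fewer cells of a type and less RNA per cell cannot be told apart.

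Ngp encodes neutrophilic granule protein, a cystatin-related protein of mouse secondary granules. Its log2 signal was 6.24, 5.5 and 5.35 in KO, near the median probe set, and 10.45, 7.61 and 5.48 in control. Control replicates 1 and 2 were above every KO array, whereas control replicate 3 fell among the KO arrays. The means were 5.7 ± 0.48 (SD, n = 3) and 7.85 ± 2.49 (SD, n = 3), with a log2 fold change of -2.15 (SE 1.13, 95% interval -4.83 to 0.53, adjusted p = 0.556 from limma). The value depended on 2 control arrays in opposite ways, at -0.85 without control replicate 1 and -3.33 without control replicate 3 (adjusted p = 0.0862 from limma).

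Camp encodes the cathelicidin antimicrobial peptide and lies on the same chromosome. Camp (chr9:109847377-109849456), Ngp (chr9:110419808-110423012) and Ltf (chr9:111019292-111042766) follow each other at distances of 570.4 and 596.3 kb, with 8 and 20 protein-coding genes between them. Camp gave 7.18, 6.71 and 6.92 in KO and 9.98, 8.33 and 6.4 in control. The order of the controls was that of Ngp, with control replicate 3 below all KO arrays. The difference was -1.30 (SE 0.80, 95% interval -3.21 to 0.61, adjusted p = 0.628 from limma). It was -0.43 without control replicate 1 and -2.22 without control replicate 3 (adjusted p = 0.062 from limma).

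Ltf encodes lactoferrin, an iron-binding protein and a defining content of secondary granules. Its signal was 6.28, 6.1 and 5.88 in KO and 7.74, 6.36 and 6.17 in control. Control replicate 1 stood far above the KO arrays, control replicate 2 just above them, and control replicate 3 among them. The difference was -0.67 (SE 0.40, 95% interval -1.62 to 0.28, adjusted p = 0.613 from limma). It shrank to -0.18 without control replicate 1. Leaving out KO replicate 1 or control replicate 3 removed the overlap of the groups, at -0.77 and -0.96. Without control replicate 3, Ngp and Camp met the criterion as lower in KO and Ngp, Camp and Ltf had all KO arrays below the controls, as did 16.3% of all probe sets.

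Lcn2 encodes lipocalin 2, which binds bacterial siderophores and is also made by other cells in inflammation. It was measured at 8.66, 8.49 and 7.92 in KO and at 7.36, 6.83 and 6.71 in control. Every KO array lay above every control array, with a gap of 0.56 between the lowest KO and the highest control value. The means were 8.36 ± 0.39 (SD, n = 3) and 6.97 ± 0.35 (SD, n = 3), 2.62-fold higher in KO (log2 fold change 1.39, SE 0.25, 95% interval 0.80 to 1.98). The unadjusted p from limma was 0.000903 and the adjusted p 0.205, so that the gene met the criterion but not the adjusted threshold. The exact permutation test, two-sided, gave p = 0.1, the smallest that 3 arrays against 3 allow. Lcn2 met the criterion in each of the 15 alternatives, with values from 1.20 to 1.61. Its adjusted p was 0.0661 to 0.579 from limma or the methods' t-test. The groups stayed apart too, but only quantile normalization and median centring could have changed that. The other alternatives kept the values or left out an array, which cannot make separated groups overlap.

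Mmp8 encodes neutrophil collagenase. Its signal was 8.6, 7.17 and 6.69 in KO and 7.16, 6.85 and 5.21 in control. KO replicate 1 stood above the other arrays and control replicate 3 below them, and the remaining 4 were mixed. The difference was 1.08 (SE 0.65, 95% interval -0.45 to 2.61, adjusted p = 0.612 from limma). Leaving out single arrays gave 0.48 to 1.48, and the upper value came without KO replicate 3, when the groups no longer overlapped.

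Cd177 encodes a surface glycoprotein that is stored in secondary granules and, in humans, holds proteinase 3 at the cell surface. It gave 6.39, 6.0 and 5.85 in KO and 6.2, 5.88 and 5.78 in control. The groups were interleaved, and the signals lay near the median probe set. The log2 fold change was 0.13 (SE 0.18, 95% interval -0.31 to 0.56, adjusted p = 0.859 from limma), and -0.03 without KO replicate 1.

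The sequences before Ngp and Lcn2 are shown because these 2 genes had the largest differences of the class, in opposite directions, and both hold TTGCNNAA. Capitals mark the same motifs as above, in RefSeq sequence of GRCm38.p6.
Ngp (chr9:110419558-110419807, + strand): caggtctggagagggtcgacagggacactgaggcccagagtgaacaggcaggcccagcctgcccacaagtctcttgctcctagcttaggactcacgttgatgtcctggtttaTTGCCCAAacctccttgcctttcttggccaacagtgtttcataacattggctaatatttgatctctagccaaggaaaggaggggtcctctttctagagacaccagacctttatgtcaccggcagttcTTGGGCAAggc
Lcn2 (chr2:32387740-32387989, - strand): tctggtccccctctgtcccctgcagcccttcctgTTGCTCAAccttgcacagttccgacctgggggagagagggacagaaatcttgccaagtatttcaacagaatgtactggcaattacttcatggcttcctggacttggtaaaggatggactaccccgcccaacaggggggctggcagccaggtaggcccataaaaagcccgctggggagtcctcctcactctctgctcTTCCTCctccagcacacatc
Ngp holds 2 C/EBP matches, at -138 to -131 on the strand of the gene and at -11 to -4 on the other, and no match to the PU.1, RUNX or MYB letters. Lcn2 holds 1 C/EBP match, at -216 to -209, and 1 PU.1 match on the other strand, at -20 to -15. Ltf and Mmp8 hold 1 C/EBP match each. Camp held none of the 4 motifs in this window.

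**Figure D2:**
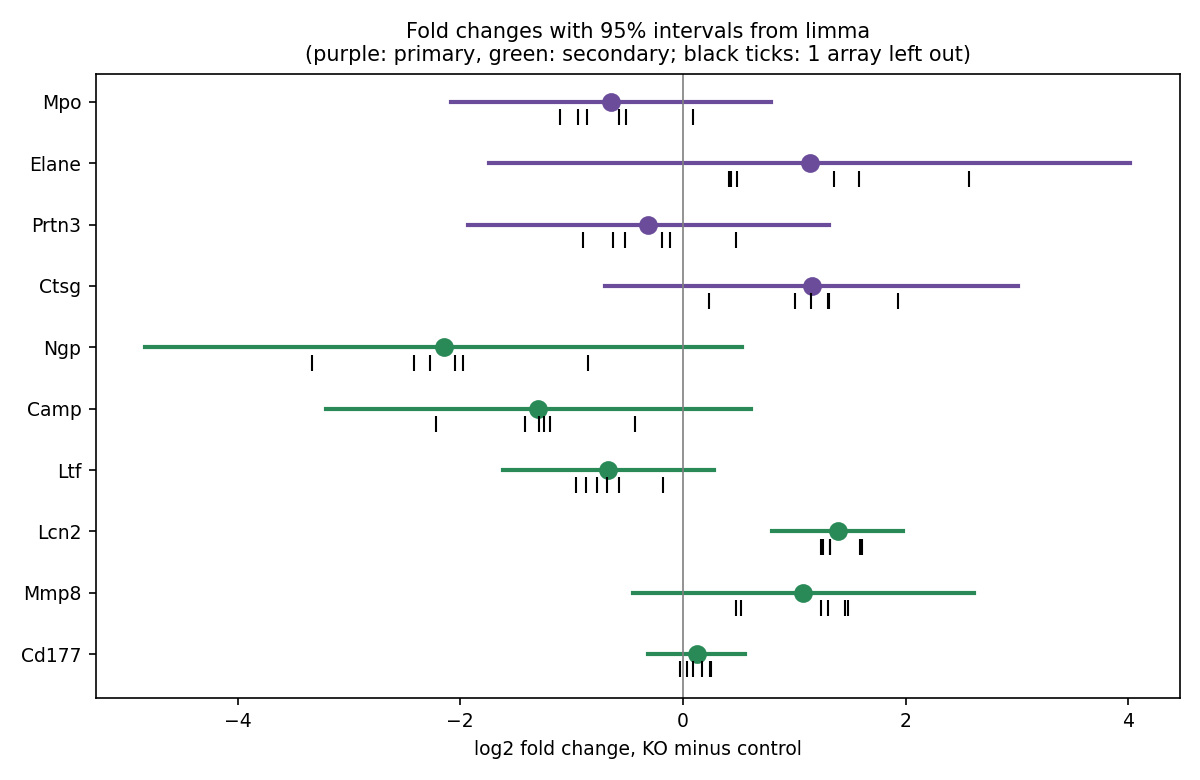
Log2 fold change (KO minus control) of each gene with its 95% interval from limma, primary granule genes in purple and secondary in green. Black ticks give the value when 1 of the 6 arrays is left out; the Lcn2 interval of 0.80 to 1.98 is the one that does not reach 0, and the ticks of Mpo, Prtn3 and Cd177 cross 0.

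Primary and secondary granule genes were then set against each other on each array, with every gene taken relative to its own mean over the 6 arrays. The 4 primary genes averaged 0.83, -0.18 and -0.14 on the KO arrays and -1.5, 1.7 and -0.7 on control replicates 1 to 3. The 6 secondary genes averaged 0.32, -0.24 and -0.47 in KO and 1.25, 0.08 and -0.94 in control. On control replicate 1 the primary genes were thus at their lowest and the secondary genes at their highest, while on control replicate 2 the primary genes were at their highest.

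The secondary minus the primary average was -0.51, -0.06 and -0.32 on the KO arrays. On the control arrays it was 2.75, -1.63 and -0.24. The KO values lay inside the control range, at -0.29 ± 0.23 (SD, n = 3) against 0.29 ± 2.24 (SD, n = 3). The balance between the classes varied more among the controls (SD 2.24) than it differed between the group means (-0.59). No p was computed for this average, since the genes were chosen.

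The same contrast showed in single genes. From control replicate 1 to control replicate 2 the signal differed by 4.27 for Elane, 3.41 for Ctsg, 2.76 for Prtn3 and 2.38 for Mpo, all higher on control replicate 2. Ngp, Camp and Ltf ran the other way, lower on control replicate 2 by -2.84, -1.65 and -1.38. Control replicate 3 was below the mean of the arrays for both classes. Of the 10 genes, 8 had a control SD in the top 5% of all probe sets, with Lcn2 and Cd177 the others, and 4 had a KO SD in the top 5%. The control SD exceeded the KO SD for 8 of 10 genes. That share over all probe sets is not given here, but their median SD was also larger in control, at 0.19 against 0.15 in KO.

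**Figure D3:**
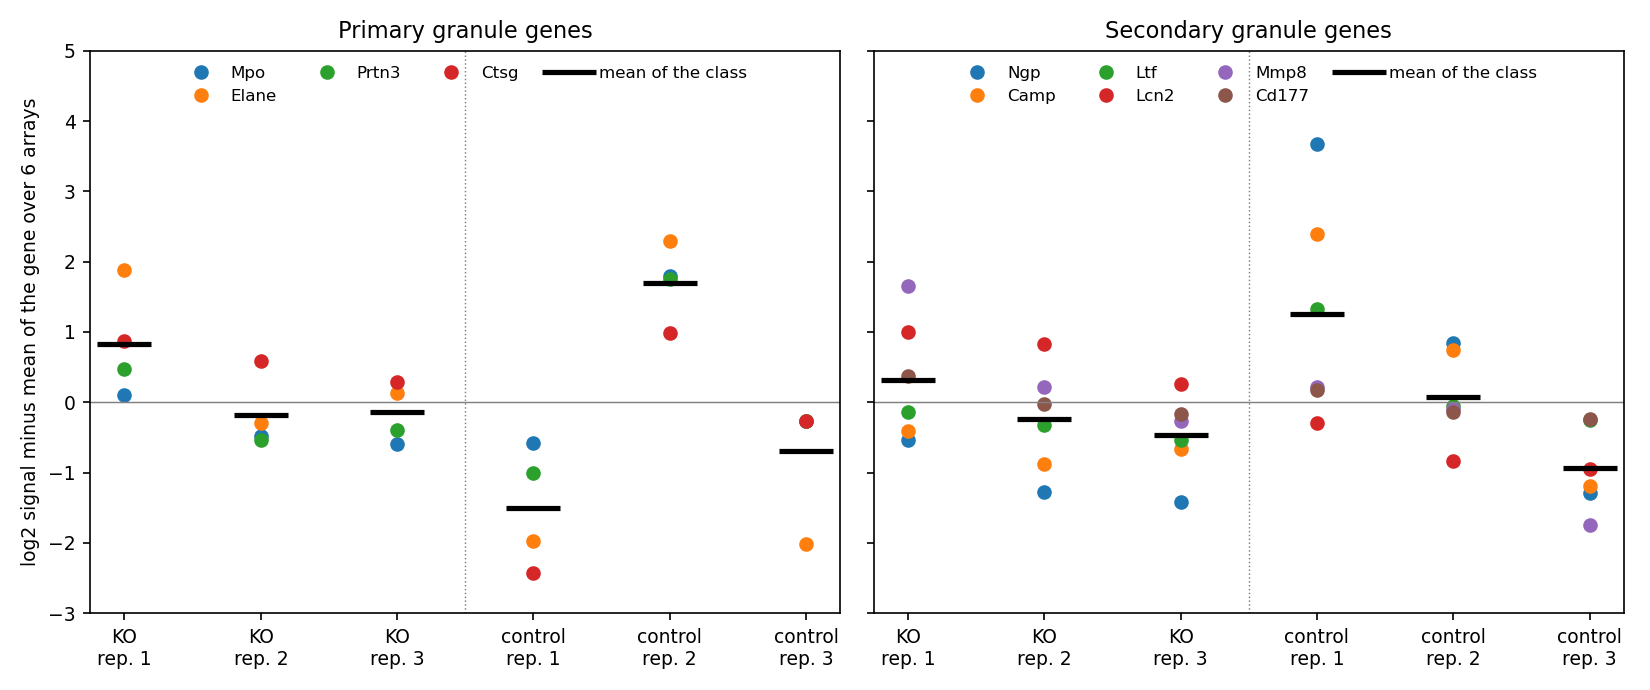
Log2 signal of each primary (left) and secondary (right) granule gene on each array minus the mean of that gene over the 6 arrays; black bars are class means. The primary mean is lowest on control replicate 1 (-1.5) and highest on control replicate 2 (1.7), and the secondary mean is highest on control replicate 1 (1.25).

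KO replicate 1 had the highest KO signal for all 10 genes, and KO replicate 3 the lowest for 5 of the 6 secondary genes, while the lowest primary signal was on KO replicate 2 for 2 genes and on KO replicate 3 for the other 2. The 14 measured markers of mature neutrophils, of 16 listed, were also highest on KO replicate 1, with list means of 10.46, 9.75 and 9.39 on KO replicates 1 to 3. On control replicates 1 to 3 they averaged 8.97, 8.47 and 7.6, so that every KO array was above every control. Of these 14 genes, 6 were higher and 0 lower at an unadjusted p under 0.05, beside 5.09% and 5.8% of all probe sets. The criterion was met by 4 as higher, beside 0.593%, and the median was 1.29. Without control replicate 3 these counts were 8, 0 and 3, and the median was 0.98. In that setting 1.86% of all probe sets met the criterion as higher. An adjusted p under 0.05 was reached there by 2 genes (Cxcr2 at 2.78 and Stfa3 at 3.49), beside 2.15% of all probe sets as higher.

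Among them S100a8, a subunit of the calcium-binding calprotectin of neutrophil cytosol, was at 18.47, 17.03 and 17.04 in KO and at 16.44, 13.9 and 9.99 in control. For S100a8 the KO arrays were higher throughout, and the controls ranked as they did for Ngp, Camp and Ltf (log2 fold change 4.07, adjusted p = 0.404 from limma). For S100a9, the other subunit, named after its values were seen, the groups overlapped. It was at 17.65, 16.22 and 16.0 in KO and at 16.58, 13.66 and 8.1 in control (log2 fold change 3.84, adjusted p = 0.54 from limma). Stfa3, a stefin A protease inhibitor with close copies in the genome that probes may share, differed by 3.30, Ifitm6 by 2.94 and the chemokine receptor gene Cxcr2 by 2.19, with adjusted p from 0.176 for Stfa3 to 0.268 for Cxcr2 from limma. Retnlg, a resistin-like gene of mature neutrophils chosen after its values were seen, behaved otherwise, at 9.2, 7.21 and 7.77 in KO and 11.17, 8.4 and 6.18 in control, the control order of Ngp and Camp. The LSK gate selects cells without lineage antigens. The part of neutrophil RNA in the granule gene signals was not tested.

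Monocyte markers followed the primary granule genes among the controls. The 10 genes averaged 8.2, 10.06 and 8.34 on control replicates 1 to 3, against 9.29, 9.09 and 8.67 on KO replicates 1 to 3, with a median difference of -0.17. Control replicate 2 was again highest. At an unadjusted p under 0.05, 1 monocyte gene was higher (Fcgr1, 0.75) and 1 lower (Klf4, -0.42). Without control replicate 2, the highest control for these genes, the median turned to 0.56, with 5 of the 10 higher and 0 lower at that threshold. In that setting 3 met the criterion as higher, as did 0.566% of all probe sets. Without control replicate 3 the median was -0.27, with 1 higher and 0 lower at that threshold and 0 past the criterion. The 8 basophil and mast cell markers averaged 10.49 to 10.68 in KO and 7.67, 10.08 and 10.27 in control, lowest on control replicate 1 as Ctsg and Prtn3 were. Their median difference was 1.24, and 2 were higher and 0 lower at an unadjusted p under 0.05 (Fcer1a at 2.58 and Hdc at 2.07), or 5 and 0 without control replicate 3. The B cell genes were high on control replicates 1 and 2 and low on control replicate 3, and 0 of 8 passed an unadjusted p under 0.05. Without control replicate 3, 7 of 8 did, all lower in KO. That array was singled out by these same genes, so that the count is no test of them. The 11 macrophage markers were at 5.81 to 5.95 in KO and 5.65 to 5.71 in control, with 7 of them below the median probe set, and 2 were higher (Vcam1 at 0.54 and Mrc1 at 0.53).

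Lists of cell types further from the neutrophil also held differences between the groups. The 7 measured megakaryocyte markers had a median difference of 1.31, close to that of the mature neutrophil markers, with 3 higher (Itgb3 at 2.04, Ppbp at 1.98 and Thbs1 at 1.31) and 0 lower at an unadjusted p under 0.05 and 1 past the criterion. They averaged 9.09 to 9.45 in KO and 7.5, 7.58 and 9.41 in control, so that control replicate 3 lay within the KO range. Without it 5 of 7 were higher at an adjusted p under 0.05, but it was the highest control for this list, and leaving it out lowers the control mean. The 8 T and NK cell markers had a median of 1.09, and 2 were higher, both past the criterion (Trat1 at 1.95 and Klrb1c at 1.16). Of 7 eosinophil markers 1 was lower, Prg2, the major basic protein of the eosinophil granule, at 7.85 to 9.47 in KO and 12.26 to 13.48 in control (log2 fold change -4.52, adjusted p = 0.151 from limma), and without control replicate 3 the count at an adjusted p under 0.05 was 3 lower. Of 6 erythroid markers 1 was higher (Alas2 at 0.52) and 2 were lower (Car1 at -3.66 and Tfrc at -1.28). Without control replicate 3, 1 of the T and NK cell markers (Trat1) was higher and 1 of the erythroid markers (Tfrc) lower at an adjusted p under 0.05. Of the stem and progenitor markers Cd34 was higher by 0.84 and Flt3 lower, at -1.22, with a list median of 0.02, and 0.40 without control replicate 3, when Cd34 (1.28) passed an adjusted p under 0.05. What these cell types contribute to the granule gene signals was not tested.

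**Figure D4:**
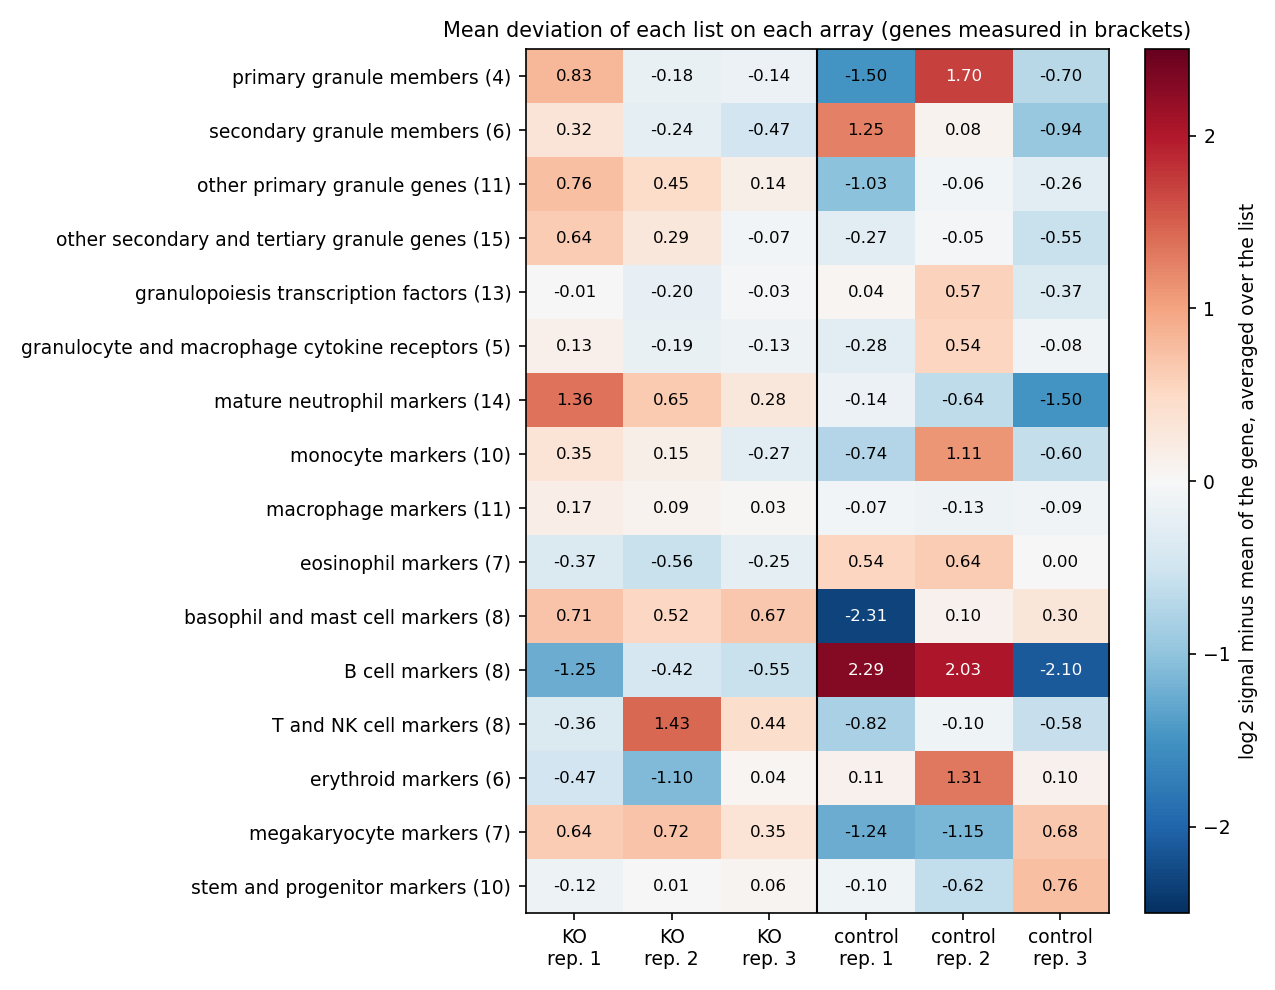
Mean deviation of each gene list on each array (log2 signal of a gene minus its mean over the 6 arrays, averaged over the measured genes, whose number is in brackets), red for higher and blue for lower. The primary granule row shares its highest control with the monocyte row (control replicate 2), and the mature neutrophil row is highest on KO replicate 1 (1.36) and lowest on control replicate 3 (-1.5).

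Other genes listed with the primary granule were measured beside the 4 named ones. Of 11 genes, 4 were higher and 0 lower at an unadjusted p under 0.05, beside 5.09% and 5.8% of all probe sets. The criterion was met by 2 as higher, beside 0.593%, and the median difference was 0.35. The 4 were Lyz2, Lyz1, Ms4a3 and Serpinb1a, and the 2 were Lyz2 and Lyz1. As the list is not specific to the primary granule, these counts do not show whether the 4 named genes stand for it. Without control replicate 3, 5 were higher, 2 met the criterion and 1 (Lyz2 at 2.94, adjusted p = 0.0259 from limma) passed an adjusted p under 0.05. Lyz2, which encodes the lysozyme of myeloid cells, was at 17.5, 17.21 and 15.97 in KO and at 13.83, 14.08 and 14.71 in control. The groups did not overlap, and the KO mean was 6.44-fold higher (log2 fold change 2.69, SE 0.42, adjusted p = 0.18 from limma). Its near-identical neighbour Lyz1, whose signal cannot be fully separated from that of Lyz2, differed by 2.22 (adjusted p = 0.195 from limma). Lysozyme is found in all granule types of the neutrophil and in monocytes.

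Ms4a3, a membrane protein gene of granulocyte-macrophage progenitors, was at 15.11, 14.28 and 13.85 in KO and at 8.96, 13.67 and 11.65 in control. The controls kept the order of Ctsg and Prtn3, with replicate 2 highest and replicate 1 lowest, but all lay below the KO arrays (log2 fold change 2.99, SE 1.09, adjusted p = 0.402 from limma). Serpinb1a, an inhibitor of neutrophil elastase, cathepsin G and proteinase 3, differed by 0.71 with overlapping groups (adjusted p = 0.451 from limma). The remaining 7 genes of the list, among them Prss57 and Cst7, had unadjusted p of 0.05 or more.

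Of the other genes listed with secondary and tertiary granules, 15 of 16 were measured. They had a median difference of -0.05, and 1 was higher and 1 lower at an unadjusted p under 0.05, both past the criterion. Without control replicate 3 the same 2 genes passed an adjusted p under 0.05, Chil3 at 6.10 (adjusted p = 0.0277 from limma) and Bpifc at -1.24 (adjusted p = 0.0227 from limma). Chil3, which encodes the chitinase-like protein Ym1 of mouse neutrophils and macrophages, was at 14.37, 13.34 and 11.14 in KO and at 7.55, 6.16 and 6.08 in control. The lowest KO array was far above the highest control, and the mean was 81.8-fold higher (log2 fold change 6.35, SE 0.82, adjusted p = 0.158 from limma). Bpifc, of the family of bactericidal permeability-increasing proteins, was lower, at 5.86 to 6.31 in KO and 6.88 to 7.47 in control (log2 fold change -1.07, adjusted p = 0.213 from limma). Whether its protein is held in neutrophil granules was not tested. The list averaged 6.92 to 7.63 on the KO arrays and 6.44 to 6.94 on the controls.

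**Figure D5:**
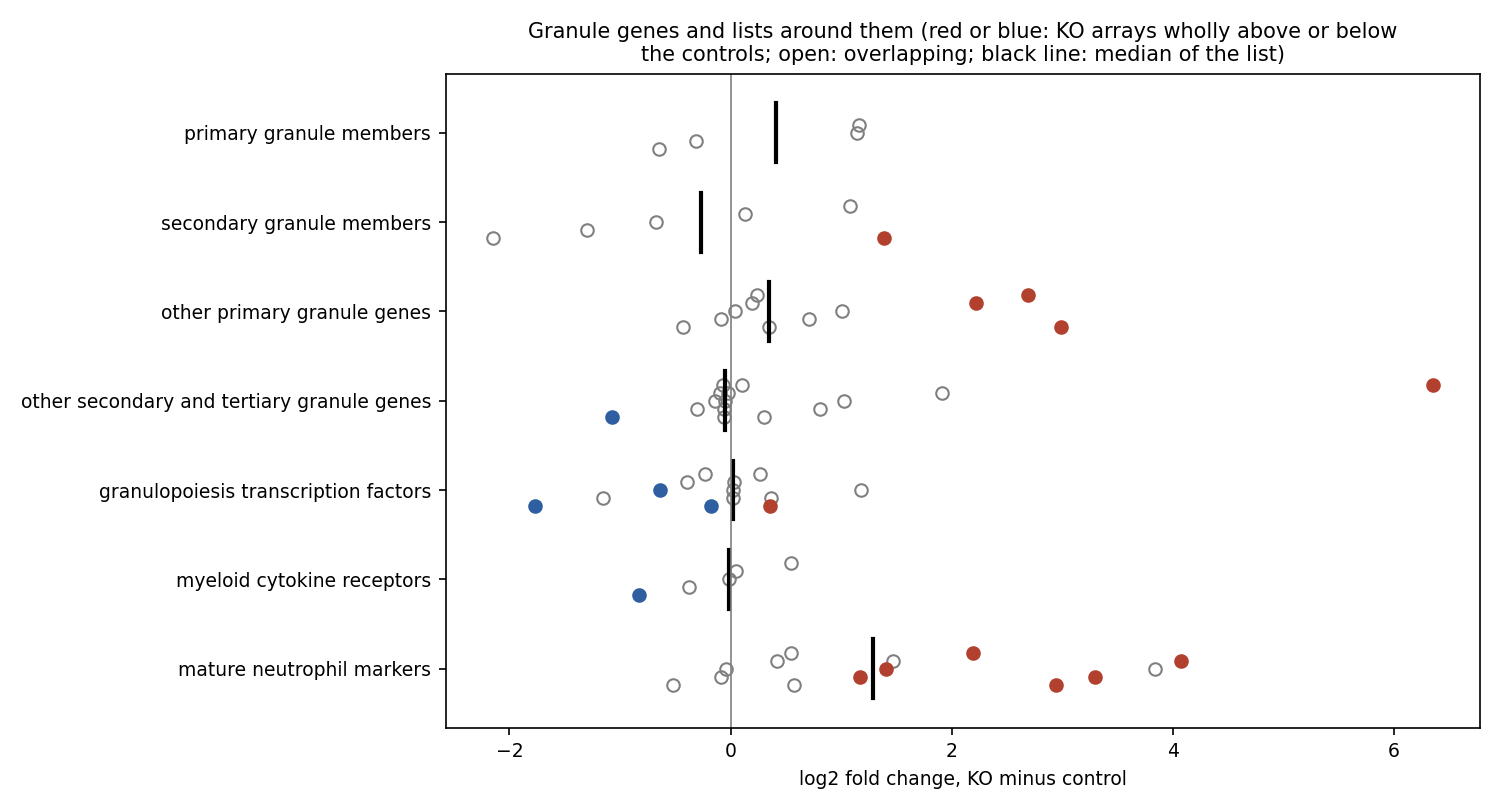
Log2 fold change (KO minus control) of each measured gene in the granule lists and in 3 lists around them; filled points are genes whose KO arrays lie wholly above (red) or below (blue) the controls, open points overlap, and black lines are medians. Medians are 0.42 for the primary and -0.27 for the secondary granule members and 1.29 for mature neutrophil markers.

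Transcription factors that act on granule genes were all measured, 13 of 13, with a median difference of 0.02. At an unadjusted p under 0.05, 1 was higher and 2 were lower, and 0 met the criterion. Without control replicate 3, 4 were lower and 2 met the criterion. In that setting 2 passed an adjusted p under 0.05, Irf8 at -2.43 and Lef1, named after its values were seen, at -3.14. On all 6 arrays Lef1 differed by -1.15 (SE 1.55, adjusted p = 0.847 from limma). Its groups overlapped, at 7.99 to 9.06 in KO and at 11.77, 11.74 and 5.79 on control replicates 1 to 3. Irf8, which favours monocyte over neutrophil fate, was at 7.41 to 7.57 in KO and at 9.14, 10.74 and 7.98 in control. All KO arrays were below the controls (log2 fold change -1.77, SE 0.62, adjusted p = 0.389 from limma). Cux1, known as a repressor of secondary granule genes in cell lines, differed by -0.64 (adjusted p = 0.369 from limma) and Klf5 by 0.36 (adjusted p = 0.423 from limma).

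A further 3 factors were chosen after their values were seen. Cebpa, the C/EBP factor needed for granulocyte commitment, was at 12.98, 11.88 and 12.21 in KO and at 9.8, 12.29 and 11.45 in control. Its control order was that of Ctsg and Prtn3, and the groups overlapped (log2 fold change 1.18, SE 0.62). Cebpe, which encodes the C/EBP factor of the secondary granule stage, was near or below the median probe set, at 5.37 to 6.17 in KO and 5.23 to 5.89 in control (log2 fold change 0.37, SE 0.26). Gfi1, a repressor needed for neutrophil maturation, was at 6.8 to 7.17 and 6.93 to 7.06 (log2 fold change 0.02, SE 0.13). Of 7 receptors for cytokines of the granulocyte and macrophage lineages 5 were measured, and Il3ra, the alpha chain of the interleukin-3 receptor, was at 6.95 to 7.17 in KO and 7.5 to 8.19 in control (log2 fold change -0.83, adjusted p = 0.261 from limma; without control replicate 3 -1.02, adjusted p = 0.0189). The receptor of G-CSF, Csf3r, differed by 0.55 with overlapping arrays.

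Genes outside the 10 were ranked by how closely their gene-centred signal followed the class mean over the 6 arrays, among 19079 genes, by the root mean square difference on the log2 scale. Nearest to the primary class were Ms4a6c at 0.20, Rab44 at 0.31, Sele at 0.38, Igsf6 at 0.39 and Ap3s1 at 0.39. Ms4a6c, a gene also in the monocyte list, was at 12.35, 11.62 and 11.46 in KO and at 10.05, 13.43 and 10.48 in control, with control replicate 2 highest. The 4 primary members themselves had a median distance of 0.59 from their class mean. Nearest to the secondary class were Clgn at 0.24, Pnp2 at 0.27, Olfr295, Asf1b and Pnp at 0.33 each, against a median of 0.74 for the 6 members. Pnp and Pnp2 are copies that encode purine nucleoside phosphorylases, and Asf1b encodes a histone chaperone of dividing cells. Asf1b was at 9.22, 9.02 and 8.82 in KO and at 10.79, 9.42 and 9.03 in control, with control replicate 1 highest.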

How the data were processed

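Total RNA (40 ng per sample) from sorted LSK cells was labeled and hybridized to 6 MTA-1.0 arrays. The authors deposited 1 log2 signal per probe set and array, normalized over the arrays by SST-RMA (Affymetrix Expression Console and Transcriptome Analysis Console in the submitters' processing notes), and these values were used as they stand, without a filter; 0 per-sample columns were left unused. Array medians were 6.02 to 6.09, and the number of arrays limits the precision. Of 65956 probe sets, 31292 had 1 gene, 1522 several and 33142 none in the platform annotation, with 330 symbols updated through RefSeq; the probe set with the highest mean stood for a gene. Differences between KO and control were tested with lmFit and eBayes of limma 3.58.1 in R 4.3.3, without weights or blocks. Benjamini-Hochberg adjustment was made over all probe sets. The test was checked on simulated data.

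Granule genes and gene lists were chosen with earlier results of these data known. All 10 granule genes are named, from each other list up to 4 genes with the largest difference at an unadjusted p under 0.05, and the 5 genes nearest in pattern to each class. Lists are described by counts and medians. Alternatives were quantile normalization, median centring, trend and robust priors, array weights, a replicate block, a label number block, probe sets above the median, the mean of the probe sets of a gene, the methods' t-test and leaving out each of the 6 arrays. Python 3.11.15, pandas 2.3.3 and matplotlib 3.10.9 were used.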

Additional observations from a re-analysis of the deposited data

How the results depend on the processing

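None of the 10 granule genes followed passed an adjusted p under 0.05 in any of the 15 alternatives. From the other granule lists, Lyz2, Chil3 and Bpifc did without control replicate 3. Of the 10 differences, 3 changed sign when 1 array was left out: Mpo to 0.09 and Prtn3 to 0.48 without control replicate 2, and Cd177 to -0.03 without KO replicate 1. Their ranges over the 6 left-out arrays were -1.10 to 0.09, -0.90 to 0.48 and -0.03 to 0.25. The other 7 kept their sign in all alternatives. The class medians also changed sign when single arrays were left out, with ranges of -0.33 to 1.21 for the primary and -0.46 to 0.04 for the secondary granule genes. Leaving out single arrays gave 1 to 2 genes called higher at the criterion. Elane joined Lcn2 without control replicate 2, when 0.566% of all probe sets were called higher. Between 0 and 2 genes were called lower, Ngp and Camp without control replicate 3, when 1.3% of probe sets were. Groups did not overlap for 1 to 4 genes. The 4 came without control replicate 3, when KO lay above the controls for 16.7% of probe sets and below them for 16.3%. That share is not given here for the other left-out arrays. With the label number as a block, 2 genes were called lower, Ngp at -3.24 and Camp at -2.10. So were 1.14% of all probe sets in that fit. The labels do not say what the numbers mean, and 2 of them are shared between the groups. KO replicate 2 and control replicate 3 each have a number of their own, so that they add nothing to the blocked difference. The block therefore also sets control replicate 3 aside, and its calls of Ngp and Camp are not separate from those without that array. The deviations of arrays with the same replicate number correlated at 0.16, -0.17 and -0.17, and the 2 pairs that share a label number correlated at 0.16 each. The highest value, 0.28, was between KO replicate 2 and control replicate 3, which share neither number. Deviations from the mean of only 3 arrays constrain each other, so that these correlations cannot show or exclude a pairing. With the replicate block, the difference was 1.39 for Lcn2 (adjusted p = 0.399 from limma) and -2.15 for Ngp (adjusted p = 0.499 from limma), and it changed no call. Cd177 fell under the median filter and has 14 alternatives. The cause of these changes was not tested.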
